A study of Mus musculus with 15 samples.

Results

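The genes described here belong to the pre-B cell receptor, to the signalling path behind it or to the Fc receptor family of B cells. They were read in lineage-negative bone marrow cells of mice that received a second, serial transplant. There are 9 of them among the 45706 genes counted: Igll1, Vpreb1 and Vpreb3 (surrogate light chain and its chaperone-like relative), Cd79a and Cd79b (signalling subunits), Blnk and Blk (adaptor and kinase), and Fcmr and Fcrla (Fc receptor family). They were given as a list of names, matched to Ensembl identifiers through GENCODE vM21, and all 9 passed the filter on low counts. They were chosen by their fold changes in the libraries of G3 mTerc-/-Puma-/- relative to those of G3 mTerc-/-Puma+/+, where several had been seen to differ. Member values in that comparison are therefore given as a description, counts of calls in it included, from which nothing is read. Every other comparison that holds one of these groups shares libraries with it. In those comparisons the choice favours lower values in G3 mTerc-/-Puma+/+ and higher values in G3 mTerc-/-Puma-/-. Only the comparison of Puma-/- with WT is free of those libraries.

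The study asked how loss of PUMA (gene Bbc3), a protein that triggers apoptosis downstream of p53, alters blood formation in mice without the telomerase RNA mTerc. The 15 RNA-seq libraries comprised 3 of WT, 4 of Puma-/-, 4 of G3 mTerc-/-Puma+/+ and 4 labelled as G3 mTerc-/-Puma-/-, where G3 is the third generation bred without telomerase. All donors were C57BL/6J mice carrying CD45.2 and aged 8 to 12 weeks, and the knockouts were present in every cell of the donor. Stem and progenitor cells (LSK) were given to CD45.1 recipients after a lethal dose of irradiation (9.5 Gy) and moved after 6 weeks into second recipients, whose marrow was taken after 16 weeks, or earlier at signs of disease. Lineage-negative cells were enriched on magnetic columns with antibodies that include B220, a surface marker carried by most B lineage cells, so the libraries hold what escaped that depletion. A sort for donor cells is not named for these libraries, and host cells may therefore be included. Nothing in the labels states whether replicates came from separate mice, so the p-values measure the spread between these samples.

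The pre-B receptor is the first antigen-receptor-like complex of a developing B cell. It pairs a newly made immunoglobulin heavy chain with a surrogate light chain, made of the lambda5 protein (Igll1) and VpreB, and signals through CD79A and CD79B. The kinases SYK and the SRC family (BLK, LYN, FYN) phosphorylate these subunits and the adaptor BLNK, which allows one round of expansion followed by light chain rearrangement. Igll1 and the Vpreb genes are shut off afterwards, whereas Cd79a, Cd79b and Blnk stay active in mature B cells.

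Library totals ran from 102790519 to 158367059 counts, and 0 counts allowed at most 0.0292 CPM (3 counts; counting error only). Levels are normalized CPM, counts scaled to a common library total with edgeR's TMM factors, and fold changes are on the log2 scale of edgeR's fit of 14 libraries. Replicate 2 of the libraries labelled as G3 mTerc-/-Puma-/- stood apart and was left out of that fit, since the heat maps of the study do not draw it, although its statistics section states that data were not excluded. With all 15 libraries fewer of the 9 genes passed in each comparison that had calls. Its Rag1 count was 0, its Dntt level was 0.327 against 10.9 to 148 in the other 14 libraries, and its Hba-a1 level was 416 against at most 67.7. Its levels are shown beside those of each of the 9 genes. Bbc3 lay at 5.04 to 6.83 normalized CPM in Puma-/- but at 13.5 to 17.1 in the libraries labelled as G3 mTerc-/-Puma-/- (9.71 to 23.6 in WT, 11.8 to 20.8 in G3 mTerc-/-Puma+/+), so their Puma status rests on the label. Terc had 0 or 1 count in all mTerc-/- libraries and 4 to 17 counts in the others. The libraries also differed in sex chromosome transcripts: the Y-linked gene Ddx3y was at most 0.0448 in Puma-/- and at least 42.8 in G3 mTerc-/-Puma+/+. Ddx3y was 21.3 to 43.2 in WT, and 2.88, 46.0 and 4.27 in replicates 1, 3 and 4 labelled as G3 mTerc-/-Puma-/-. Kit, a receptor of progenitor cells, lay at 114 to 165 normalized CPM in all 15 libraries and Cd3e of T cells at 3.61 to 26.9.

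The surrogate light chain was low in 11 libraries and high in those labelled as G3 mTerc-/-Puma-/-, except for the one left out. Igll1, which encodes lambda5 (ENSMUSG00000075370, GRCm38 chr16:16860671-16863985, minus strand), was at 2.02, 1.29 and 1.44 normalized CPM in WT and at 2.38, 0.978, 1.57 and 1.21 in Puma-/-. It was at 1.57, 0.778, 1.004 and 1.02 in G3 mTerc-/-Puma+/+. In replicates 1, 3 and 4 labelled as G3 mTerc-/-Puma-/- Igll1 was at 4.12, 16.3 and 4.91, and in replicate 2 at 0.981. The 3 high libraries did not overlap with any of the other 11, whereas WT, Puma-/- and G3 mTerc-/-Puma+/+ overlapped with each other. Replicate 3 stood 3.32-fold above the next library.

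Vpreb1, the other part of the surrogate light chain (ENSMUSG00000059305, chr16:16868403-16870843, minus strand), was at 2.07, 1.35 and 1.27 in WT and at 1.67, 0.791, 1.56 and 1.39 in Puma-/-. It was at 1.46, 0.925, 0.929 and 1.06 in G3 mTerc-/-Puma+/+, and at 3.07, 13.1 and 3.19 in the libraries labelled as G3 mTerc-/-Puma-/- (0.800 in replicate 2). The order of the libraries was nearly that of Igll1, which lies next to it on chromosome 16. Across the 14 libraries the log2 levels of Igll1 and Vpreb1 had a Pearson r of 0.98 and a Spearman rho of 0.97, as a description, with the libraries and their scaling in common. Per kilobase of exon, the ratio of Igll1 to Vpreb1 stayed between 0.466 and 0.852 in all 15 libraries, while each gene varied 21.0-fold and 16.6-fold over the 14. Vpreb1 shares 108 exonic bases with Top3b on the opposite strand, and Vpreb2 is a near copy: of 156 aligned bases of their promoter windows, 98.1% were identical, so reads of the pair may be shared or lost. Vpreb2 was at most 0.196 normalized CPM in the 11 libraries of the other genotypes, and at 0.220, 2.24 and 0.486 in replicates 1, 3 and 4 labelled as G3 mTerc-/-Puma-/-, with 0 counts in replicate 2.

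Vpreb3 (ENSMUSG00000000903, chr10:75943057-75949657, plus strand) encodes a related protein that binds immunoglobulin chains inside the pre-B cell rather than at its surface. It was at 1.01, 0.875 and 0.673 in WT, at 1.05, 0.818, 0.725 and 0.664 in Puma-/-, and at 0.874, 1.03, 0.276 and 0.691 in G3 mTerc-/-Puma+/+. In the libraries labelled as G3 mTerc-/-Puma-/- it was at 1.90, 7.84 and 2.55, and replicate 2, at 1.63, also lay above all 11 libraries of the other genotypes. In this respect Vpreb3 differed from Igll1 and Vpreb1, which were not raised in replicate 2.

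**Figure D1:**
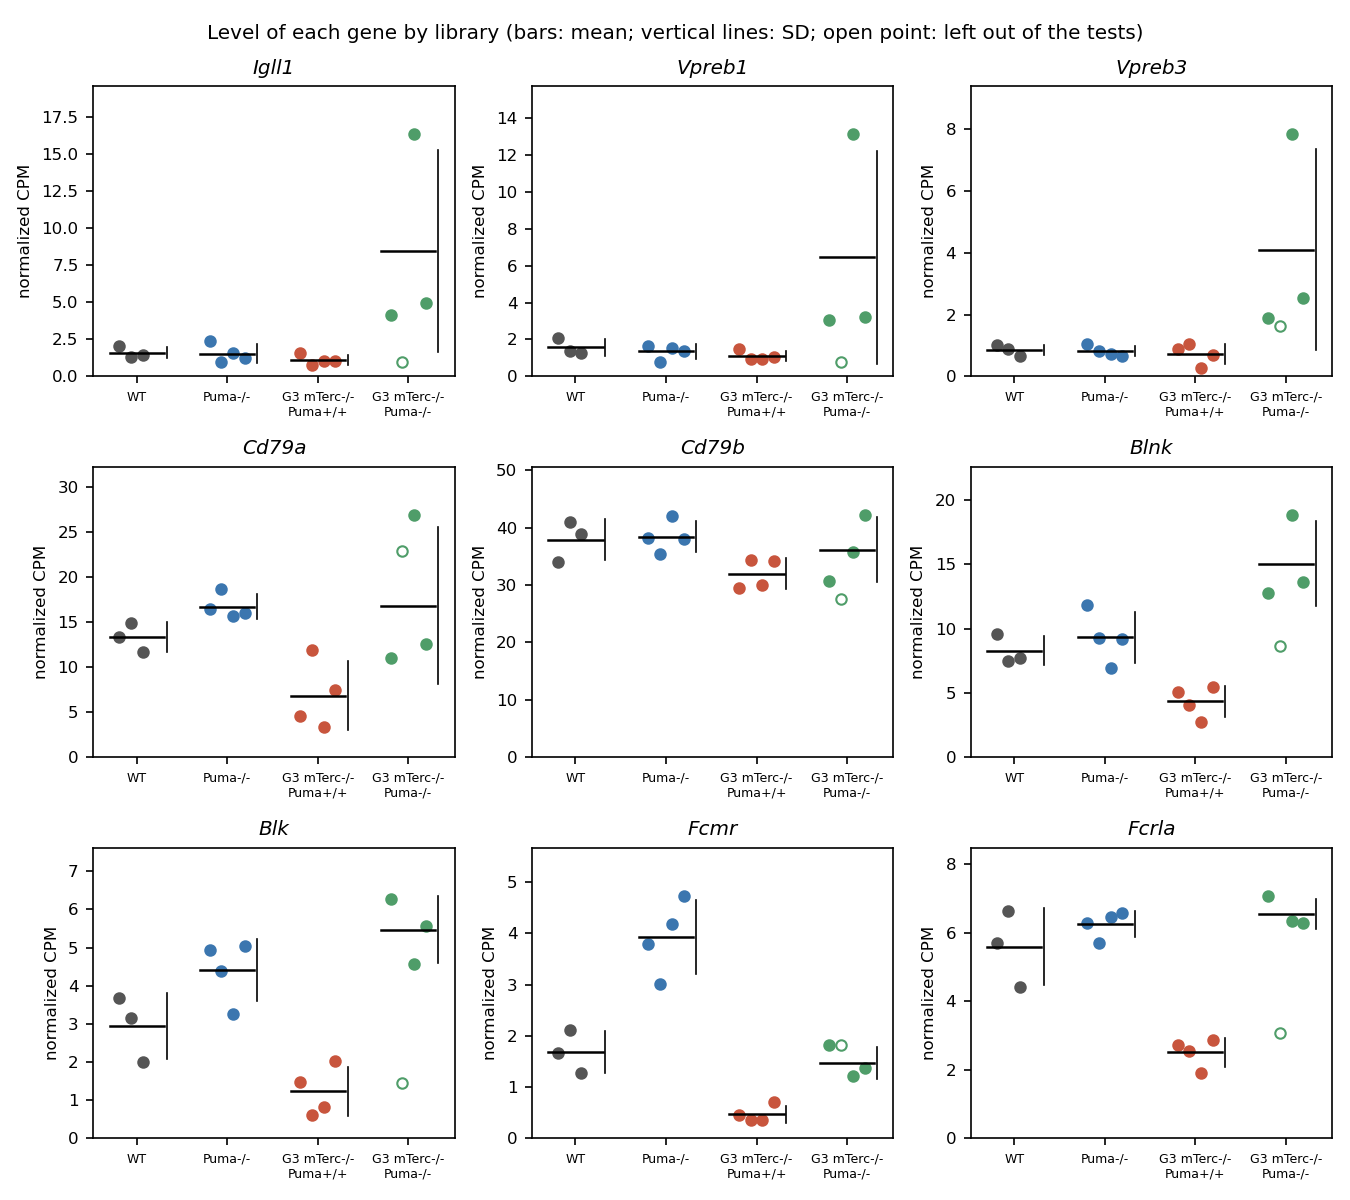
Normalized CPM (vertical axes, starting at 0) of the 9 genes in each library, by genotype; bars are means and vertical lines SD over the libraries used in the tests, and the open point is replicate 2 labelled as G3 mTerc-/-Puma-/-. Igll1, Vpreb1 and Vpreb3 are high in 3 libraries, with replicate 3 (16.3 for Igll1) far above the rest, while Blnk, Blk, Fcmr and Fcrla are low in G3 mTerc-/-Puma+/+.

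The sequence before the transcription start was read for the 7 of 9 genes with a RefSeq promoter window (GRCm38.p6), because the surrogate light chain genes moved together. The 250 bases before the start were searched on both strands for the octamer ATGCAAAT, a binding site of OCT factors in B cell promoters, for the E boxes CAGCTG and CAGGTG, which E2A and related factors can bind, for AGGAAG (ETS core), for TGGGAA (Ikaros core) and for the EBF1 palindrome, TCCC and GGGA set 2 bases apart. The octamer was in 2 of 7 windows (Vpreb3 and Blnk) and in 1.6% of 32851 windows of all genes. CAGGTG was in 5 of 7 (17.2% of all), CAGCTG in 2 of 7 (13.0%), AGGAAG in 4 of 7 (29.5%), TGGGAA in 0 of 7 (21.6%) and the EBF1 palindrome in 0 of 7 (0.779%). Matches are descriptions of letters, and a window without one says nothing about the factor. Of the 250 bases, annotated GENCODE exons covered 250 for Blnk, 190 for Vpreb1, 116 for Cd79a and 108 for Fcmr. The RefSeq start can lie inside the GENCODE gene: the Vpreb3 window ends at chr10:75948299, within the coordinates given above. Capitals mark the octamer and the E boxes, in either orientation, in the stretches below, written 5′ to 3′ on the strand of the gene. The first 3 end at the base before the start, and for the other genes, whose windows touch annotated exons, 30 bases around a match are shown:
Igll1, chr16:16863986-16864155: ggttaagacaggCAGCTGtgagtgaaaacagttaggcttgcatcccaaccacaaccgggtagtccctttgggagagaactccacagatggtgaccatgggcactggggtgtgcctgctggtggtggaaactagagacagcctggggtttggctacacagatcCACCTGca
Vpreb3, chr10:75948130-75948299: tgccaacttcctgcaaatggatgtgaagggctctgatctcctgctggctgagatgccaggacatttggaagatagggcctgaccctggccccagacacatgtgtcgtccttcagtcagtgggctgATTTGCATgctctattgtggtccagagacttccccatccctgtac
Fcrla, chr1:170927584-170927753: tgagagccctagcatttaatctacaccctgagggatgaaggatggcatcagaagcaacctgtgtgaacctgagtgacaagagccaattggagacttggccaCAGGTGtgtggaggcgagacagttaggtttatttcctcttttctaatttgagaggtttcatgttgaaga
Vpreb1, chr16:16869326-16869355: atgacgttccagCAGGTGcttcctcccaga
Cd79a, chr7:24897331-24897360: ttgtggccagccCAGGTGcagggcagttcc
Blnk, chr19:40994333-40994362: tactggaagggATTTGCATgcccaataagg
Fcmr, chr1:130865589-130865618: ggcaaggcctggCAGCTGctcaggctgaga

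The signalling subunits followed Igll1, Vpreb1 and Vpreb3 less closely than these genes followed each other. Over the 14 libraries the log2 level of Cd79a had a Pearson r of 0.43, 0.45 and 0.59 with them, in that order. For Cd79b the values were 0.11, 0.096 and 0.16. Cd79a (ENSMUSG00000003379, chr7:24897381-24902197, plus strand) was at 13.4, 14.95 and 11.7 in WT and at 16.4, 18.7, 15.7 and 16.1 in Puma-/-. It was at 4.61, 11.9, 3.37 and 7.47 in G3 mTerc-/-Puma+/+, and at 11.1, 26.9 and 12.6 in the libraries labelled as G3 mTerc-/-Puma-/- (22.9 in replicate 2). Every Puma-/- library was above every WT library, and the 4 libraries of G3 mTerc-/-Puma+/+ were below all of Puma-/- but, through replicate 2 at 11.9, not below all of WT. Replicate 2 labelled as G3 mTerc-/-Puma-/- had the second highest Cd79a of the 15 libraries.

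Cd79b (ENSMUSG00000040592, chr11:106311341-106314762, minus strand), the partner of Cd79a in the receptor, hardly varied. It was at 34.0, 40.9 and 38.8 in WT, at 38.2, 35.5, 42.0 and 38.0 in Puma-/-, and at 29.5, 34.4, 30.02 and 34.1 in G3 mTerc-/-Puma+/+. It was at 30.7, 35.8 and 42.1 in the libraries labelled as G3 mTerc-/-Puma-/- (27.5 in replicate 2). The highest of the 14 libraries was 1.43-fold above the lowest, against 7.97-fold for Cd79a. Per kilobase, Cd79b exceeded Cd79a by 1.93-fold to 3.38-fold in WT and Puma-/- and by 2.93-fold to 9.06-fold in G3 mTerc-/-Puma+/+. The ratio was lowest in replicates 2 and 3 labelled as G3 mTerc-/-Puma-/-, at 1.22 and 1.36.

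Blnk, the adaptor that links SYK to phospholipase C (ENSMUSG00000061132, chr19:40928927-40994535, minus strand), was at 9.56, 7.51 and 7.73 in WT and at 11.8, 9.29, 6.95 and 9.18 in Puma-/-. It was at 5.11, 4.07, 2.77 and 5.45 in G3 mTerc-/-Puma+/+, and at 12.7, 18.8 and 13.6 in the libraries labelled as G3 mTerc-/-Puma-/- (8.62 in replicate 2). The 14 libraries thus formed 3 ranges that did not overlap: G3 mTerc-/-Puma+/+ below WT and Puma-/-, and the libraries labelled as G3 mTerc-/-Puma-/- above them.

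Blk, a SRC family kinase of B cells (ENSMUSG00000014453, chr14:63372836-63417037, minus strand), was at 3.67, 3.17 and 1.99 in WT and at 4.95, 4.39, 3.27 and 5.05 in Puma-/-. It was at 1.48, 0.600, 0.811 and 2.03 in G3 mTerc-/-Puma+/+, and at 6.28, 4.56 and 5.58 in the libraries labelled as G3 mTerc-/-Puma-/- (1.45 in replicate 2). The lowest WT library lay just under the highest of G3 mTerc-/-Puma+/+, and replicate 2 lay within the range of G3 mTerc-/-Puma+/+.

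Fcmr, the Fc receptor for IgM (ENSMUSG00000042474, chr1:130865669-130880791, plus strand), separated the genotypes in another order. It was at 1.67, 2.11 and 1.28 in WT and at 3.80, 3.01, 4.19 and 4.72 in Puma-/-, and at 0.456, 0.354, 0.351 and 0.701 in G3 mTerc-/-Puma+/+. In the libraries labelled as G3 mTerc-/-Puma-/- it was at 1.82, 1.23 and 1.36 (1.82 in replicate 2), within or just below the range of WT. Fcmr was the gene of the 9 in which Puma-/-, not the libraries labelled as G3 mTerc-/-Puma-/-, held the 4 highest values.

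Fcrla, an intracellular relative of the Fc receptors that binds immunoglobulin in B cells (ENSMUSG00000038421, chr1:170917576-170927583, minus strand), was at 5.71, 6.65 and 4.40 in WT and at 6.28, 5.70, 6.45 and 6.56 in Puma-/-. It was at 2.73, 2.55, 1.92 and 2.88 in G3 mTerc-/-Puma+/+, and at 7.06, 6.33 and 6.28 in the libraries labelled as G3 mTerc-/-Puma-/- (3.06 in replicate 2). All 4 libraries of G3 mTerc-/-Puma+/+ lay below all other libraries. Its relative Fcrlb stayed between 0.167 and 0.510 in the 14 libraries and passed by edgeR in no comparison.

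In WT, the level per kilobase of exon (normalized CPM, mean ± SD, n = 3) was highest for Cd79b (26.5 ± 2.48), then Cd79a (9.16 ± 1.12) and Fcrla (3.20 ± 0.646). The other 6 were Blnk (1.38 ± 0.188), Vpreb1 (1.30 ± 0.370), Blk (1.09 ± 0.319), Vpreb3 (0.992 ± 0.196), Fcmr (0.973 ± 0.239) and Igll1 (0.734 ± 0.178). From Vpreb1 to Fcmr each gene differed from the next by less than the SD of either, as did Blnk from Vpreb1, and Igll1 was below Fcmr by more than its own SD. In the libraries labelled as G3 mTerc-/-Puma-/- (n = 3) Vpreb1 (5.39 ± 4.81), Vpreb3 (4.77 ± 3.79) and Igll1 (3.90 ± 3.15) ranked next after Cd79b and Cd79a, with SD close to the means because of replicate 3. Among the log2 levels of the 9 genes, Blk and Fcrla (Pearson r 0.92) and Blnk and Blk (0.89) also varied alike over the 14 libraries, whereas Igll1 and Fcmr (0.15) or Igll1 and Cd79b (0.11) did not. In bulk RNA, fewer cells of a type and less RNA per cell cannot be told apart.

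**Figure D2:**
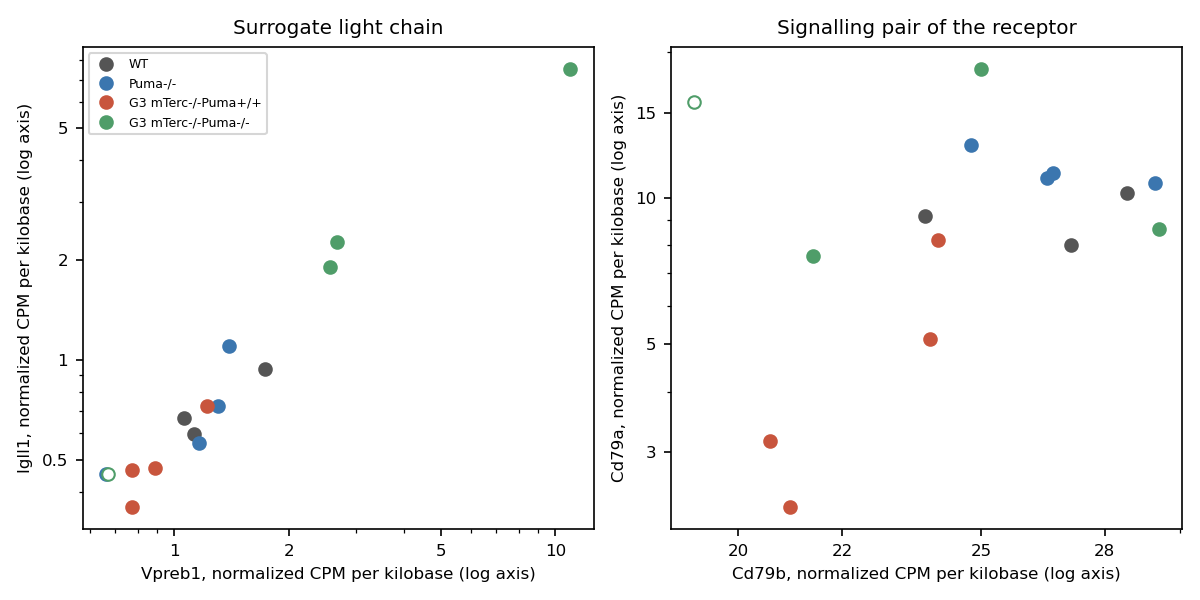
Level per kilobase of exon in each library for Igll1 against Vpreb1 (left) and Cd79a against Cd79b (right), both axes logarithmic, coloured by genotype, with replicate 2 labelled as G3 mTerc-/-Puma-/- open. The surrogate light chain genes keep their ratio (0.466 to 0.852) over all 15 libraries, while Cd79a varies at a nearly constant Cd79b.

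The comparison of Puma-/- with WT asked what loss of PUMA did to these genes where telomerase was present. Fcmr was 1.22 higher on the log2 scale in Puma-/- (SE 0.269), with 4 of 4 libraries above all 3 of WT, and Cd79a was 0.33 higher (SE 0.370), also without overlap. Fcmr had an adjusted p of 0.265 in edgeR's quasi-likelihood test, and so did not pass; with DESeq2 its adjusted p was 0.00139, and over all alternatives it ran from 0.00139 to 0.994. By edgeR, 0 of 9 genes passed an adjusted p of 0.05, where 0.079% of all 18983 genes did, and 1 of 9, Fcmr, had an unadjusted p under 0.05, against 10.1% of all genes. DESeq2 called 1 of 9, against 0.747% of the genes it adjusted. The libraries of Puma-/- were all higher than those of WT for 2 of 9 genes, against 5.48% of all genes. In an exact two-sided permutation test of the log2 level, run for each of the 9 genes, Fcmr and Cd79a each reached p = 0.0286. That is the smallest p that 4 against 3 libraries allow, and it adds little to the lack of overlap. The others had 0.0857 (Blk) or more in that test, and Cd79a had an adjusted p of 0.788 by edgeR. Igll1 (-0.05, 95% interval -1.01 to 0.91), Vpreb1 (-0.21, -1.18 to 0.77) and Vpreb3 (-0.06, -1.08 to 0.95) had intervals about 2-fold wide on either side, so smaller differences were not detectable. These intervals are not adjusted for the number of genes, and larger differences could also miss the adjusted threshold, as Fcmr did at 1.22. The spread behind them was estimated over all 14 libraries. The interval of Cd79b (0.02, -0.21 to 0.25) was narrow. Ddx3y did not overlap between these groups (at most 0.0448 in Puma-/- and at least 21.3 in WT), and the part of sex in the differences was not separated from that of genotype. With the level of Xist as a covariate Fcmr was 1.05 (adjusted p = 0.539) and Cd79a 0.63 (adjusted p = 0.707) higher in Puma-/-. By edgeR 0 mature B cell and 0 megakaryocyte markers passed in this comparison, but 8 of 8 megakaryocyte markers (median 1.11) and 4 of 14 mature B cell markers were higher at an unadjusted p under 0.05, and DESeq2 called 4 (Gp1bb, Gp9, Pf4 and Vwf) and 1 (Ms4a1). At that unadjusted threshold 5 of 14 inhibitory and co-receptor genes of B cells (median 0.36) were higher and 0 lower. Of 11 stem and progenitor genes 3 were higher (median 0.43) and 0 lower, and DESeq2 called 1 of them (Procr). The part of these cells in the result was not tested.

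The comparison of G3 mTerc-/-Puma+/+ with WT asked what loss of telomerase did while PUMA was present. All 9 genes had a fold change below 0, with a median of -0.93 against 0.018 over all genes tested. The choice of the genes by these G3 mTerc-/-Puma+/+ libraries favoured that direction, and a larger share of calls than among all genes. By edgeR the 2 Fc receptor genes fell. Fcmr fell by 1.86 on the log2 scale (SE 0.269, edgeR adjusted p = 0.0230) and Fcrla fell by 1.15 (SE 0.164, adjusted p = 0.0225), so 2 of 9 passed, against 0.0369% of all genes (0.0211% as falls). Blnk (-0.93, SE 0.232, adjusted p = 0.573), Blk (-1.26, SE 0.347, adjusted p = 0.828) and Cd79a (-0.96, SE 0.367, adjusted p = 0.998) did not pass by edgeR. DESeq2 called 3 of 9, Fcmr, Fcrla and Blnk (adjusted p = 0.0275), against 0.243% of the genes it adjusted. Igll1 (-0.54), Vpreb1 (-0.51), Vpreb3 (-0.25) and Cd79b (-0.25) did not either. The libraries did not overlap for 3 of 9 genes (Blnk, Fcmr, Fcrla), against 2.11% of all genes, and 6 of 9 had an unadjusted p under 0.05, against 3.86%. Of the edgeR calls, Fcrla did not pass with all 15 libraries (adjusted p = 0.667), the Xist covariate (adjusted p = 0.0527) or a replicate block (adjusted p = 0.0625). Limma-voom called Fcrla but not Fcmr. Neither gene passed in an edgeR fit of the 2 genotypes alone (adjusted p = 0.304 for Fcmr). Leaving out WT replicate 1 or 2, or G3 mTerc-/-Puma+/+ replicate 1, 2 or 3, left 0 of 9.

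Against Puma-/-, which differs from G3 mTerc-/-Puma+/+ in both genes, 4 of the 9 genes fell, the Fc receptor family genes Fcmr and Fcrla, the kinase Blk and the adaptor Blnk. Fcmr fell by 3.08 (SE 0.264, adjusted p = 7.06e-05), Fcrla by 1.31 (SE 0.155, adjusted p = 0.00138), Blk by 1.84 (SE 0.332, adjusted p = 0.0350) and Blnk by 1.10 (SE 0.218, adjusted p = 0.0431) on the log2 scale. These 4 of 9 compare with 0.801% of all genes (0.564% as falls). The choice of the genes by these G3 mTerc-/-Puma+/+ libraries favoured falls, and a larger share of calls, here too. Cd79a (-1.29, SE 0.347, adjusted p = 0.0868) and Cd79b (-0.26, SE 0.100, adjusted p = 0.206) did not pass by edgeR, although neither overlapped between the genotypes, so that 6 of 9 genes were without overlap, against 5.82% of all genes. At an unadjusted p under 0.05 there were 6 of 9, against 17.1% of all genes. DESeq2 called 5 of 9, the 4 above and Cd79a (adjusted p = 0.00329), against 5.82% of the genes it adjusted. Igll1 (-0.49, SE 0.415), Vpreb1 (-0.30, SE 0.422) and Vpreb3 (-0.18, SE 0.439) overlapped. The calls of Fcmr and Fcrla held in all 17 alternatives, with adjusted p up to 0.0014 and 0.0451, whereas those of Blk and Blnk were lost with all 15 libraries (adjusted p = 0.115 and 0.104). Leaving out Puma-/- replicate 1, 2 or 4, or G3 mTerc-/-Puma+/+ replicate 2 or 3, left 2 of 9.

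Markers of mature B cells and plasma cells were read in the same libraries. The summed level of 14 mature B cell markers (immunoglobulin genes among them) was 1814 to 4452 normalized CPM there, against 8620 to 10619 in Puma-/- and 6546 to 15580 in WT, and that of 8 plasma cell markers 572 to 1423, against 1186 to 1618 and 1257 to 1780. The mature B cell sums of G3 mTerc-/-Puma+/+ were below those of both genotypes without overlap, while the plasma cell sums overlapped with both. In replicate 2 labelled as G3 mTerc-/-Puma-/- the sums were 9211 and 2427. Against WT, 0 genes of either list passed by edgeR, with 5 of 14 mature B cell markers lower at an unadjusted p under 0.05, and DESeq2 called 4 of 14. Of the 8 plasma cell markers 4 were lower at that level against WT (median -0.80), where DESeq2 called 0, and 5 against Puma-/- (median -0.95), where DESeq2 called 2 (Derl3 and Sdc1). Against Puma-/-, 12 of 14 mature B cell markers were lower at an unadjusted p under 0.05 and the median log2 fold change was -1.02; DESeq2 called 8 of 14. By edgeR 2 of 14 fell, Ms4a1 (CD20, -2.61, SE 0.270, adjusted p = 0.000444) and Igkc (-1.56, SE 0.334, adjusted p = 0.0492), and of the plasma cell markers 1 of 8, Sdc1 (-1.05, adjusted p = 0.0429). Of 14 inhibitory and co-receptor genes tested 5 were lower against Puma-/- at an unadjusted p under 0.05, among them Cd22 (-0.93, adjusted p = 0.101), Cd72 (-0.59, adjusted p = 0.120) and Fcrl5 (-2.81, adjusted p = 0.0524), which DESeq2 called. No marker of these lists was at 0 in any of the 14 libraries. The part of these cells in the member values was not tested. Ddx3y and Xist differed fully between these genotypes, and with the level of Xist as a covariate 2 of 9 members passed.

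Against Puma-/-, 2 of 9 genes passed by edgeR in the libraries labelled as G3 mTerc-/-Puma-/-, Igll1 as higher and Fcmr as lower. Igll1 rose by 2.46 (SE 0.446, adjusted p = 0.0363), Vpreb1 was 2.25 higher (SE 0.453, adjusted p = 0.0578) and Vpreb3 2.33 higher (SE 0.468, adjusted p = 0.0578), and these 2 missed the threshold. Fcmr fell by 1.42 (SE 0.271, adjusted p = 0.0476). That call was lost in all 7 fits that each left out a library, with log2 fold changes from -1.60 to -1.30. Of all 17 alternatives Fcmr passed in 6, among them edgeR with all 15 libraries (-1.33, adjusted p = 0.0346) and limma-voom. The 2 of 9 that passed compare with 0.306% of all genes. The choice of the genes by the libraries labelled as G3 mTerc-/-Puma-/- favoured higher values, and a larger share of calls. At an unadjusted p under 0.05 there were 5 of 9, against 8.42%. DESeq2 called 4 of 9 (Igll1, Vpreb1, Vpreb3 and Fcmr), against 1.51% of the genes it adjusted. The libraries were all higher for 4 of 9 genes (the 3 above and Blnk, 0.69, SE 0.231, adjusted p = 0.375), against 4% of all genes. Cd79a (0.01, SE 0.368), Cd79b (-0.09, SE 0.108), Blk (0.31, SE 0.342) and Fcrla (0.07, SE 0.163) had intervals that hold 0. Igll1 did not pass with all 15 libraries (2.10, adjusted p = 0.265), and leaving out replicate 3 labelled as G3 mTerc-/-Puma-/- left 0 of 9, with Igll1 at 1.56 (adjusted p = 0.152), Vpreb1 at 1.21 and Vpreb3 at 1.45. With the Xist covariate neither Igll1 (adjusted p = 0.166) nor Fcmr (adjusted p = 0.129) passed. Leaving out Puma-/- replicate 2, 3 or 4 also left 0 of 9, and leaving out Puma-/- replicate 1 left 1. Summed mature B cell markers were at 4241 to 8236 in these 3 libraries and at 9211 in replicate 2, against 8620 to 10619 in Puma-/-. Of these 14 markers 0 had a fold change above 0 and 3 were lower at an unadjusted p under 0.05, and DESeq2 and limma-voom both called Ms4a1 lower (edgeR -1.26, adjusted p = 0.0886). Their part in the result was not tested.

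Against WT, the same libraries had Igll1 at 2.41 (SE 0.494, adjusted p = 0.190), Vpreb1 at 2.05 (SE 0.497, adjusted p = 0.366) and Vpreb3 at 2.26 (SE 0.517, adjusted p = 0.289) above the control on the log2 scale. Blnk was 0.86 higher (SE 0.250, adjusted p = 0.510) and Blk 0.89 higher (SE 0.371, adjusted p = 0.826). By edgeR 0 of 9 passed, against 0.0632% of all genes, with 5 of 9 at an unadjusted p under 0.05 (5.45% of all genes), and DESeq2 called 3 of 9, against 0.49% of the genes it adjusted. All 5 genes were higher in 3 of 3 libraries than in every WT library, against 5.32% of all genes. The choice of the genes favoured higher values in these libraries. Cd79a (0.33), Cd79b (-0.07), Fcmr (-0.20) and Fcrla (0.23) overlapped with WT. Over all alternatives the adjusted p of Igll1 ran from 7.94e-05 (DESeq2) to 0.555. Without replicate 3 labelled as G3 mTerc-/-Puma-/- Igll1 was 1.51, Vpreb1 1.003 and Vpreb3 1.38 higher than in WT.

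**Figure D3:**
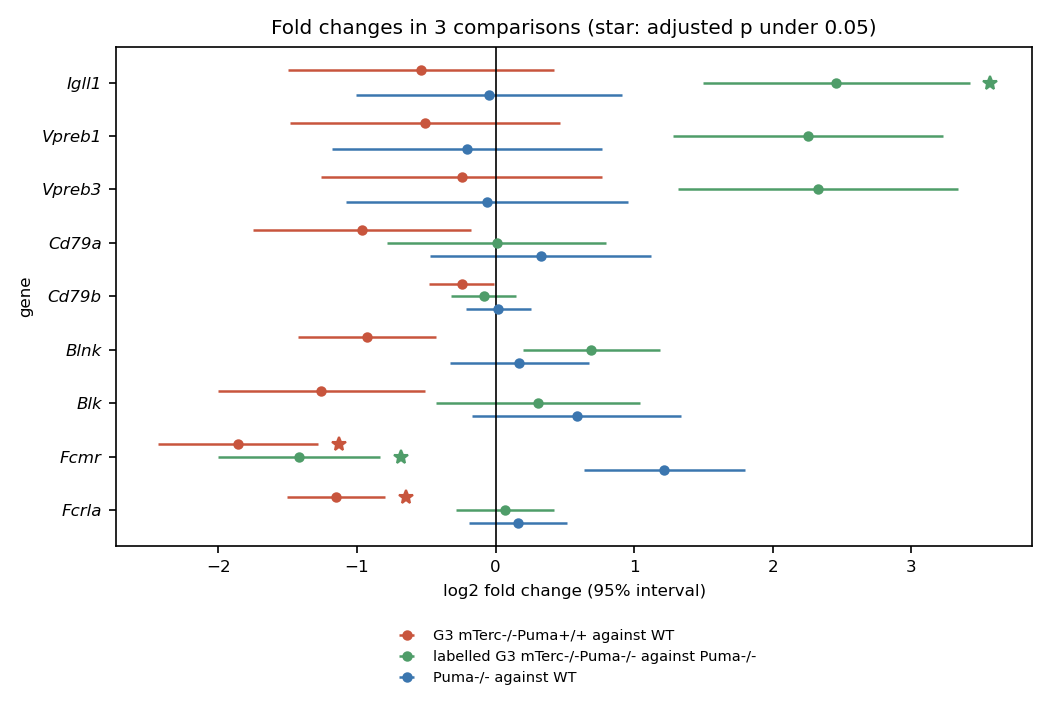
log2 fold change with its 95% interval (horizontal axis) of the 9 genes in 3 comparisons, with stars where edgeR's adjusted p was under 0.05. Without telomerase and with PUMA (red) the fold changes are all below 0, and in the libraries labelled as G3 mTerc-/-Puma-/- against Puma-/- (green) Igll1, Vpreb1 and Vpreb3 lie above 2 while Fcmr lies at -1.42.

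As a description of the comparison by which the genes were chosen, the libraries labelled as G3 mTerc-/-Puma-/- exceeded G3 mTerc-/-Puma+/+ by 2.95 for Igll1, 2.56 for Vpreb1, 2.51 for Vpreb3, 2.15 for Blk, 1.79 for Blnk, 1.66 for Fcmr, 1.38 for Fcrla, 1.30 for Cd79a and 0.18 for Cd79b on the log2 scale. There 5 of 9 genes had an adjusted p under 0.05, against 0.0738% of all genes, and 7 of 9 did not overlap, against 3.16%, which the choice of the genes fixes. DESeq2 called 8 of 9 there, against 0.908% of the genes it adjusted. Over the 14 libraries, 8 of 9 genes had their lowest value in a G3 mTerc-/-Puma+/+ library, the exception being Vpreb1 with Puma-/- replicate 2. The highest value was in replicate 3 labelled as G3 mTerc-/-Puma-/- for 5 genes (Igll1, Vpreb1, Vpreb3, Cd79a and Blnk), in replicate 1 for Blk and Fcrla, in replicate 4 for Cd79b and in Puma-/- replicate 4 for Fcmr. Without replicate 3 Igll1 was 2.05, Vpreb1 1.51 and Vpreb3 1.63 higher.

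The interaction of mTerc and Puma asks whether the change with telomerase loss differed with PUMA status. Of the 9 genes, 0 passed by edgeR, against 0.0527% of all genes, with 6 of 9 at an unadjusted p under 0.05 (4.93% of all genes) and 5 of 9 called by DESeq2, against 0.338% of the genes it adjusted. The fold changes of the interaction were 2.997 for Igll1 (SE 0.625, adjusted p = 0.246), 2.76 for Vpreb1, 2.57 for Vpreb3, 1.62 for Blnk (SE 0.327, adjusted p = 0.212), 1.57 for Blk, 1.22 for Fcrla (SE 0.230, adjusted p = 0.142), 0.97 for Cd79a, 0.44 for Fcmr and 0.16 for Cd79b. These libraries include those of the comparison by which the genes were chosen.

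The other genes of the path had fold changes close to those of all genes. Of 33 signalling partners (SYK, BTK, LYN, phospholipase C, PI3 kinase and others) 0 passed by edgeR in each of the 7 comparisons, and their median log2 fold change lay between -0.11 (G3 mTerc-/-Puma+/+ against Puma-/-) and 0.062 (the libraries labelled as G3 mTerc-/-Puma-/- against G3 mTerc-/-Puma+/+). At an unadjusted p under 0.05 at most 6 of 33 were found, in G3 mTerc-/-Puma+/+ against Puma-/-, where DESeq2 called 1, Rasgrp3, as lower. Limma-voom called 0 of 33 throughout. Syk was at 199 to 303 normalized CPM in the 14 libraries, Btk at 125 to 141 and Lyn at 137 to 184, and these kinases are also used by myeloid cells. The most abundant of the list were Prkcd, Ptpn6 and Pik3cd.

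Of 22 early B cell transcription factors and recombination genes, 0 passed by edgeR or limma-voom in each of the 7 comparisons. At an unadjusted p under 0.05, edgeR had 6 of 22 higher and 1 lower in the libraries labelled as G3 mTerc-/-Puma-/- against Puma-/-, and 8 of 22 lower in G3 mTerc-/-Puma+/+ against Puma-/-. DESeq2 called 1 of 22 in the former (Vpreb2, higher) and 4 of 22 in the latter (Irf4, Lef1, Pax5 and Pou2af1, lower). In G3 mTerc-/-Puma+/+ against WT 3 of 22 were lower at an unadjusted p under 0.05, and DESeq2 called 1 (Irf4, lower). Against WT the libraries labelled as G3 mTerc-/-Puma-/- had 6 of 22 higher at an unadjusted p under 0.05, and DESeq2 called 3 (Dntt, Rag1 and Vpreb2). Against G3 mTerc-/-Puma+/+ they had 12 of 22 higher at that level, and DESeq2 called 6. Pax5, which fixes B lineage identity, was at 0.177 to 1.06 in G3 mTerc-/-Puma+/+, 0.611 to 1.61 in WT, 1.24 to 2.73 in Puma-/- and at 3.33, 8.28 and 1.92 in the libraries labelled as G3 mTerc-/-Puma-/- (0.817 in replicate 2). Ebf1, an activator of Igll1 and Vpreb1, was at 1.15 to 2.23, 1.51 to 2.08, 1.92 to 4.38 and at 3.31, 8.21 and 2.73 in the same order, with 7.18 in replicate 2. Rag1, a recombinase subunit, was at 2.53, 7.79 and 2.49 and Dntt, which adds nucleotides to heavy chain junctions, at 103, 148 and 99.4 in the libraries labelled as G3 mTerc-/-Puma-/-, each above all 11 libraries of the other genotypes. Against Puma-/- the log2 fold changes were 1.37 for Pax5 (adjusted p = 0.548), 0.83 for Ebf1 (adjusted p = 0.589), 2.30 for Rag1 (adjusted p = 0.225) and 0.92 for Dntt (adjusted p = 0.554).

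Among the other genes whose log2 level followed the mean of the 9 most closely over the 14 libraries were Tubb2b (Pearson r 0.93), Chst3 (0.92), Rilpl1 (0.91), Pax5 (0.91), Ly6d (0.91), Sdc4 (0.90), Pltp (0.89), Havcr1 (0.87) and Sdc1 (0.87). Without the libraries with the most extreme mean, G3 mTerc-/-Puma+/+ replicate 3 and replicate 3 labelled as G3 mTerc-/-Puma-/-, these values were 0.776 (Sdc1) to 0.903 (Tubb2b). With all 15 libraries Pax5 was at 0.91, while Havcr1 dropped to 0.56. Differences between genotypes were not removed. Genes that differ between G3 mTerc-/-Puma+/+ and the libraries labelled as G3 mTerc-/-Puma-/- can therefore rank high, since the 9 were chosen by that difference.

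**Figure D4:**
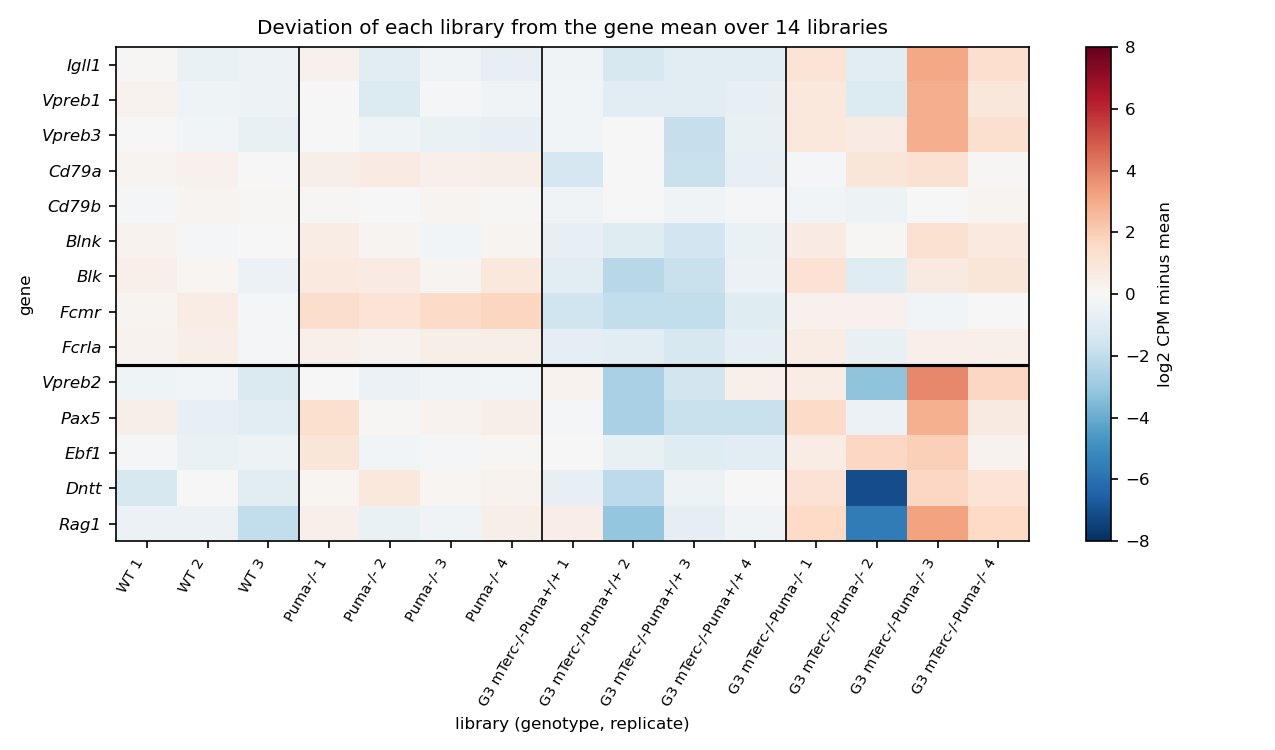
Deviation of the log2 CPM of each library from the gene's mean over 14 libraries (colour, centred on 0), for the 9 genes (above the line) and Vpreb2, Pax5, Ebf1, Dntt and Rag1 (below it). Replicate 3 labelled as G3 mTerc-/-Puma-/- is high in the surrogate light chain, Pax5, Ebf1 and Rag1, and replicate 2 has the lowest Dntt (0.327 normalized CPM) and Rag1 (0 counts).

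Markers of other cells that a lineage-negative preparation can hold were read in the same libraries. The summed level of 14 plasmacytoid dendritic cell markers, cells that share Blnk with B cells, was 727 to 1231 in G3 mTerc-/-Puma+/+, 1140 to 1327 in WT, 1149 to 1285 in Puma-/- and 1200 to 1442 in the libraries labelled as G3 mTerc-/-Puma-/-, but 220 in replicate 2. Siglech, which defines these cells, was at 50.2, 41.3 and 47.6 in replicates 1, 3 and 4, at 0.129 in replicate 2 and at 8.08 to 35.6 in the other genotypes. By edgeR, 1 of 14 plasmacytoid dendritic cell markers, Ly6d, had an adjusted p under 0.05 in the libraries labelled as G3 mTerc-/-Puma-/- against G3 mTerc-/-Puma+/+ (1.86 higher), where DESeq2 called 7. At an unadjusted p under 0.05 these markers were higher in the libraries labelled as G3 mTerc-/-Puma-/- for 7 of 14 against WT and 6 of 14 against Puma-/-, and lower in G3 mTerc-/-Puma+/+ for 9 of 14 against Puma-/-. Summed T cell markers overlapped between all genotypes (87.2 to 368, with 324 in replicate 2 labelled as G3 mTerc-/-Puma-/-), as did those of neutrophils and monocytes (12584 to 25952, with 29022 in replicate 2). NK cell markers summed to 478 to 504 in G3 mTerc-/-Puma+/+ and to 367 to 473 in WT, without overlap, with 658 in replicate 2 labelled as G3 mTerc-/-Puma-/-. In edgeR these lists, the erythroid list and the stem and progenitor list had 0 genes past the threshold in each of the 7 comparisons, as in limma-voom. At an unadjusted p under 0.05 the erythroid list had 8 of 10 genes higher in the libraries labelled as G3 mTerc-/-Puma-/- against Puma-/-, and the other lists at most 6, while DESeq2 called at most 2 genes of each list. Megakaryocyte genes were highest in Puma-/- (380 to 628, against 139 to 317 in the other genotypes), and against Puma-/- 5 of 8 fell in G3 mTerc-/-Puma+/+ and 6 of 8 in the libraries labelled as G3 mTerc-/-Puma-/-, Pf4 by 1.63 and by 2.22 on the log2 scale. Gp1bb, Gp9, Vwf and Treml1 fell in both, and Ppbp in the latter. Erythroid genes summed to 35.0 to 103 in WT, Puma-/- and G3 mTerc-/-Puma+/+ and to 70.0 to 299 in the libraries labelled as G3 mTerc-/-Puma-/-, with 1957 in replicate 2. The part of these cells in the member values was not tested.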

How the data were processed

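Total RNA of lineage-negative marrow cells was sequenced as poly(A)-selected, stranded libraries. The authors trimmed reads with Trimmomatic 0.38 and aligned them with STAR 2.5.2b to mm10 (GRCm38), per the labels and the methods, and deposited raw gene counts; the strand setting of the counting is not given in the sources used here. Symbols, exon lengths and coordinates came from GENCODE vM21 and promoter windows from RefSeq. Counts of 18983 genes kept by filterByExpr were fitted over 4 genotypes in 14 libraries with the quasi-likelihood F-test of edgeR 4.0.16 (R 4.3.3), TMM factors and Benjamini-Hochberg adjustment over all genes tested. DESeq2 1.42.0 and limma 3.58.1 (voom) were alternatives, with all 15 libraries, other filters, library size alone, a replicate block, an Xist covariate, fits of 2 genotypes and each library left out. Log2 CPM used a prior count of 2. On simulated counts for Puma-/- against WT (18983 genes), edgeR recovered 82.0% of changes of 1.5 and 97.0% of changes of 2 on the log2 scale, with 6.28% of 191 calls false. Every simulated gene had the same relative spread between libraries, unlike the measured genes, so these shares do not carry over to single members. The members and lists were chosen with earlier results of these data known. The text names all members, their near copies, listed genes past the threshold in edgeR, the most abundant signalling partners and the 10 genes most alike, and further genes chosen after their values were seen, except for an item that is not reported here.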

Additional observations from a re-analysis of the deposited data

Results flagged for a closer look

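Vpreb3 was at 7.84 normalized CPM in replicate 3 of the 4 libraries labelled as G3 mTerc-/-Puma-/-, far from the other 3 by Dixon's test at the 95% level. It was the only such case among 27 groups of 4 libraries over the 9 genes, and chance marks about 1 in 20 groups.

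Blnk was lower in every G3 mTerc-/-Puma+/+ library than in every WT library, and higher in each of the 3 libraries labelled as G3 mTerc-/-Puma-/- than in every Puma-/- library. The interaction log2 fold change was 1.62 (edgeR adjusted p = 0.212), which did not pass. The choice of the genes favoured lower values in G3 mTerc-/-Puma+/+ and higher values in the libraries labelled as G3 mTerc-/-Puma-/-. Replicate 2 with that label, left out of the tests, was at 8.62 normalized CPM, within the range of Puma-/- (6.95 to 11.8).

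Replicate 2 labelled as G3 mTerc-/-Puma-/-, which the tests did not use, had 1.63 normalized CPM of Vpreb3 and 22.9 of Cd79a. Both lay above the highest WT library (1.01 and 14.95).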

How the results depend on the processing

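Of 891 fold changes of the 9 genes under the alternatives, 748 kept their direction and their side of the threshold, 92 lost and 21 gained a call, and 30 changed sign. Numbers of the 9 genes that passed were, with all 15 libraries, 1 for G3 mTerc-/-Puma+/+ against WT, 2 against Puma-/-, 1 for the libraries labelled as G3 mTerc-/-Puma-/- against Puma-/- and 2 against G3 mTerc-/-Puma+/+. In the same order they were 1, 2, 0 and 5 with the Xist covariate, 0, 2, 1 and 0 in fits of the 2 genotypes alone, and 1, 4, 1 and 3 with limma-voom. With library size alone the last 2 were 1 and 3, and without a count filter they were 4 and 7. With all 15 libraries less replicate 3 labelled as G3 mTerc-/-Puma-/-, chosen after seeing the data, the last 2 were 0. DESeq2, which called more of all genes in each comparison, called 1 for Puma-/- against WT, 3 and 5 for G3 mTerc-/-Puma+/+ against WT and Puma-/-, 3 for the libraries labelled as G3 mTerc-/-Puma-/- against WT, 4 against Puma-/- and 8 against G3 mTerc-/-Puma+/+, and 5 in the interaction. Leaving out each library gave 0 to 2, 2 to 4, 0 to 3 and 1 to 4 in that order, and 0 exact tests past the threshold, which neither 4 against 2 nor 3 against 3 libraries can reach (smallest p 0.0667 and 0.1).

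Replicate numbers did not pair the samples (correlations of same-numbered deviations from -0.25 to 0.18). With a replicate block, 1, 3, 0 and 3 of the 9 genes passed (against Puma-/-, Igll1 had an adjusted p of 0.101 and Fcmr of 0.0906 in the libraries labelled as G3 mTerc-/-Puma-/-), and Vpreb3 (0.046) and Cd79b (-0.0082) changed sign in Puma-/- against WT. In that comparison Igll1 became 0.0073 with library size alone, and with the Xist covariate Igll1, Vpreb1 and Vpreb3 became 0.20, 0.053 and 0.26. Leaving out a library moved Igll1 from -0.35 to 0.15, Vpreb1 from -0.34 to 0.036, Vpreb3 from -0.22 to 0.060 and Cd79b from -0.067 to 0.077. Vpreb3 ran from -0.47 to 0.024 in G3 mTerc-/-Puma+/+ against WT and from -0.40 to 0.087 against Puma-/-. In the libraries labelled as G3 mTerc-/-Puma-/- against WT, Cd79a ran from -0.17 to 0.56 and Cd79b from -0.19 to 0.038, and Fcrla was -0.030 with 15 libraries less replicate 3. Against Puma-/-, Cd79a was -0.0041 with library size alone, -0.14 with limma-voom, -0.45 with the Xist covariate and -0.11 with 15 libraries less replicate 3, and ran from -0.50 to 0.24 without a library. There Cd79b ran from -0.21 to 0.020, and Fcrla was -0.14 with 15 libraries and -0.19 less replicate 3. The cause of these shifts was not tested. Over all genes, G3 mTerc-/-Puma+/+ against Puma-/- gave 152 calls, 24 with 15 libraries, 996 with DESeq2, 43 with the block and 16 with the Xist covariate. A fit of these 2 genotypes alone gave 129 and limma-voom 158. Against WT it gave 7, and in that order 4, 46, 6, 6, 3 and 6. Leaving out each library gave 18 to 166 against Puma-/- and 1 to 8 against WT. For the libraries labelled as G3 mTerc-/-Puma-/- it gave 18 to 47 against Puma-/- (main fit 58) and 4 to 38 against G3 mTerc-/-Puma+/+ (main fit 14). Shifts in member counts were not separated from these.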
